A study of Mus musculus with 4 samples.

Results

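The tumour necrosis factor (TNF) superfamily was examined in group 2 innate lymphoid cells (ILC2s), lymphocytes without antigen receptors that release type 2 cytokines. The 36 genes, 17 ligands and 19 receptors, were taken by name from the 27179 gene identifiers of the count table. The rule uses no measured value, though the list was chosen with earlier results of these data known. The cells were sorted from colons of C57BL/6J animals and sequenced in bulk, with 1 mouse per library and 2 mice each on a high-fiber and a control diet. No genotype or agent besides the diets is named. The sort gates, the cell numbers, the age and sex of the mice, the kind of fiber and the time on it are not stated in the labels.

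TNF ligands are mostly membrane proteins that assemble as trimers and can be shed by proteases. They bind receptors on neighbouring cells, which can recruit TRAF adaptors and switch on NF-kB and MAP kinases. Some receptors can also start caspase-dependent cell death through a death domain. ILC2s are known to receive costimulation through members such as DR3 (Tnfrsf25) and GITR (Tnfrsf18), and to present OX40 ligand (Tnfsf4) to T cells.

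Libraries held 29263068 and 20750263 counts on the high-fiber diet and 30406730 and 20253987 counts on the control diet. All 10 ILC2 marker genes, Gata3 and Il1rl1 among them, reached 1 CPM in every library. CPM is a gene's share of the counts of a library, scaled for library size. The ILC2 markers summed to 13496 and 11311 CPM in the high-fiber libraries and 11331 and 9514 CPM in the control libraries. On the first principal component of log2(CPM + 1), which held 47.0% of the variance between libraries, high-fiber library 2 stood at 70.4, apart from high-fiber library 1 at -5.95 and from the control libraries at -37.0 and -27.4. The same library had the highest sum of B and plasma cell markers, with 760 and 1774 CPM in the high-fiber group and 637 and 655 CPM in the control group. Ighm alone gave 418 and 548 CPM of that sum in the high-fiber libraries and 482 and 615 CPM in the control libraries. Igkc, a light chain gene of B and plasma cells, had 112 and 458 CPM in the high-fiber libraries and 37.4 and 4.15 CPM in the control libraries. Jchain had 88.0 and 286 CPM in the high-fiber libraries and 33.4 and 4.05 CPM in the control libraries, and Igha 101 and 424 CPM in the high-fiber libraries and 60.4 and 3.29 CPM in the control libraries. These 3 genes were at higher levels in both high-fiber libraries, so that leaving out high-fiber library 2 does not remove them. The list of macrophage, monocyte and dendritic cell markers, of which 10 of 11 had any count and Itgax had 0, summed to 328 and 368 CPM in the high-fiber libraries and 146 and 294 CPM in the control libraries, without overlap. Apoe alone gave 202 and 192 CPM of that sum in the high-fiber libraries and 85.2 and 154 CPM in the control libraries. Lyz2 overlapped between the diets, with 72.3 and 106 CPM in the high-fiber libraries and 22.3 and 75.3 CPM in the control libraries. Mrc1 went the other way, with 0 counts in both high-fiber libraries and 74 and 3 counts in the control libraries. The sums of this list and of the B and plasma cell list were thus higher on the high-fiber diet, though not every gene was. The part of these lists in the results was not tested. Results are also given without high-fiber library 2. In bulk RNA, fewer cells of a type and less RNA per cell cannot be told apart.

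Tnfsf8, which encodes the CD30 ligand, rose on the high-fiber diet and was the 1 member that passed edgeR's test. The genes of 4-1BB (Tnfrsf9) and OX40 (Tnfrsf4), both costimulatory receptors, rose with DESeq2 and not with edgeR, and the gene of Fas ligand (Fasl), a death ligand, fell with DESeq2 and not with edgeR. Fasl had 0 counts in both high-fiber libraries. It entered the edgeR test through the control libraries alone, so its direction there was fixed by the filter on low counts. DESeq2 was run without that filter, and a gene at 0 counts on the high-fiber diet can only be called lower by it. The stretches around the annotated starts of these 4 genes are shown because they are the members that DESeq2 called. Each window runs from 250 bases before to 50 bases after a RefSeq start on the GRCm38.p6 build, in the direction of the gene. For Tnfsf8 and Tnfrsf4 that start lies 224 and 100 bases inside the span annotated for the gene. Their windows still cover the outermost start of the gene. The second start of Tnfrsf9 lies 7844 bases inside the span, and its window does not cover the outermost start. Positions are counted from 0 at the RefSeq start of each window, and capitals mark matches to the motifs searched on both strands. These were the kappa B core GGNNTTTCC, the AP-1 motif TGANTCA and the NFAT core TGGAAA. A match is a description of the letters and not a bound site.
Tnfsf8: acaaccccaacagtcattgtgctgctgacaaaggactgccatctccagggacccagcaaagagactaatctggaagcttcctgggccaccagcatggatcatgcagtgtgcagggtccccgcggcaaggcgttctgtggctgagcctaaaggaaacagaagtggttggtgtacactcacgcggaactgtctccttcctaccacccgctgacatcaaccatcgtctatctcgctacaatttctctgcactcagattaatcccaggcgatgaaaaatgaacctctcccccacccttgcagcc
Tnfrsf9 first start: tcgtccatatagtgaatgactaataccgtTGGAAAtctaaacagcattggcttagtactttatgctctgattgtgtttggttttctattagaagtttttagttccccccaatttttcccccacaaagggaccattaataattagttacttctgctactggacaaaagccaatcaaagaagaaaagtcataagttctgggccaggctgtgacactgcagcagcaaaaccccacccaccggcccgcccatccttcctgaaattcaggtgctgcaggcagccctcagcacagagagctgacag
Tnfrsf9 second start: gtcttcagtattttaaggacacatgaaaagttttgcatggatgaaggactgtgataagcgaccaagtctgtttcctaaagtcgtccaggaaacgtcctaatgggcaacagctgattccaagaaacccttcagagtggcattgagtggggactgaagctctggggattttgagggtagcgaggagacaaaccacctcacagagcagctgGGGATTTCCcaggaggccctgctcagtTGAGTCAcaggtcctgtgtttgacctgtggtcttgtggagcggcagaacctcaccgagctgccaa
Tnfrsf4: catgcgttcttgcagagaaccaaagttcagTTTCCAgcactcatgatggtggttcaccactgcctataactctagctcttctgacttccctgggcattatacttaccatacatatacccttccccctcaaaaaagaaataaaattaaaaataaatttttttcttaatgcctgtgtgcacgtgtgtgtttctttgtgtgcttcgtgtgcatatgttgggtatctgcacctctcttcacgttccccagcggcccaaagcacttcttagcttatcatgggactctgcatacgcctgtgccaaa
Fasl: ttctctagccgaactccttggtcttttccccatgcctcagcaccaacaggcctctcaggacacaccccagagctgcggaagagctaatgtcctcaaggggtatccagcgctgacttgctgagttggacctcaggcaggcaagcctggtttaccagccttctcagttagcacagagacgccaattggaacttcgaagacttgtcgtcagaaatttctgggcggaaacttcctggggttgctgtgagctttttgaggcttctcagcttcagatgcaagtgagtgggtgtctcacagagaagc

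The Tnfsf8 window lies at chr4:63861235-63861534 on the minus strand, and the Fasl window at chr1:161788446-161788745 on the minus strand. Neither holds any of the 3 motifs. Tnfrsf9 has a pair of annotated starts. The window of the first, chr4:150919905-150920204 on the plus strand, has 1 NFAT core beginning at position -221. The window of the second, chr4:150927749-150928048 on the plus strand, has 1 kappa B core beginning at -42 and 1 AP-1 motif beginning at -15. Tnfrsf4, at chr4:156013445-156013744 on the plus strand, has 1 NFAT core at -220, read on the opposite strand. Of all 32851 windows in the table, 5.82% held the kappa B core, 7.81% the AP-1 motif and 21.4% the NFAT core. A window was found for 29 of the 36 members, 32 windows in all, and the kappa B core occurred in 4 of these members, Ltb, Tnfrsf9, Tnfrsf13b and Tnfrsf25. The AP-1 motif occurred in 6 members and the NFAT core in 7.

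Colonic ILC2s on the control diet held transcripts of many, but not all, members. Levels are compared between genes as CPM per kilobase of exon (CPM per kb), since a longer gene collects more reads. At 1 CPM or more in all 4 libraries of both diets, 21 members were present, 9 ligands and 12 receptors. Fasl (7.22 and 2.33 CPM) and Cd40 (1.13 and 4.38 CPM) passed 1 CPM in both control libraries but not in all 4 libraries. The ligand genes of highest level were Ltb, which encodes the membrane subunit of lymphotoxin, Tnfsf11, which encodes RANKL, Tnfsf9, which encodes the 4-1BB ligand, and then Lta, Tnf and Tnfsf14.

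Ltb stood at 97.6 and 104 CPM per kb in the high-fiber libraries and at 145 and 229 CPM per kb in the control libraries. Tnfsf11 was at 111 and 94.3 CPM per kb on the high-fiber diet and at 155 and 121 CPM per kb on the control diet. Their control libraries overlapped, so the control data give no order between these genes. Tnfsf9 followed with 89.1 and 69.2 CPM per kb on the high-fiber diet, against 46.7 and 74.4 CPM per kb on the control diet, where both libraries lay under those of Tnfsf11. Lta, the soluble lymphotoxin subunit, had 20.7 and 29.7 CPM per kb on the high-fiber diet and 42.7 and 37.5 CPM per kb on the control diet. Tnf, the founding cytokine of the family, had 17.1 and 22.1 CPM per kb on the high-fiber diet and 19.8 and 54.3 CPM per kb on the control diet. The gene of LIGHT, Tnfsf14, had 20.0 and 18.2 CPM per kb on the high-fiber diet and 25.3 and 46.5 CPM per kb on the control diet. Lta, Tnf and Tnfsf14 overlapped on the control diet, and all 3 lay under Tnfsf9 there by their means. Tnfsf4 came next on the control diet, apart from Tnfsf14 above it and from Tnfsf10, the gene of TRAIL, below it. Tnfsf10, Tnfsf8, Fasl, Cd70, Cd40lg and Tnfsf18 followed, each overlapping its neighbour in the order.

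Among receptors, Tnfrsf18, which encodes GITR, held 82.0% of the summed receptor level on the high-fiber diet and 80.3% on the control diet. It stood at 2088 and 2316 CPM per kb in the high-fiber libraries and at 1664 and 1425 CPM per kb in the control libraries. Of its exon bases, 27.2% are shared with Gm16008 on the opposite strand, which had 10 and 55 counts in the high-fiber libraries and 46 and 30 counts in the control libraries. Whether the counting used strand is unknown, and reads of this overlap cannot be assigned with certainty, and the same holds for Tnfsf9, with 14.9% of its exon bases shared with Gm11110.

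Tnfrsf25, the gene of DR3, was second on the control diet, with 140 and 121 CPM per kb in the high-fiber libraries and 152 and 114 CPM per kb in the control libraries. Cd27, whose product is a costimulatory receptor, had 56.2 and 44.8 CPM per kb on the high-fiber diet and 102 and 76.4 CPM per kb on the control diet. For Tnfrsf9 the values were 230.0 and 148 CPM per kb on the high-fiber diet and 83.5 and 62.8 CPM per kb on the control diet. Tnfrsf25 lay above Cd27 in both control libraries, while Cd27 and Tnfrsf9 overlapped there. By the means, Tnfrsf9 ranked 2 among receptors on the high-fiber diet and 4 on the control diet. Tnfrsf1b, which encodes the TNF receptor without a death domain, had 78.1 and 21.6 CPM per kb on the high-fiber diet and 55.0 and 32.2 CPM per kb on the control diet. Tnfrsf10b, the mouse TRAIL receptor gene, had 8.25 and 6.45 CPM per kb on the high-fiber diet and 13.8 and 10.6 CPM per kb on the control diet. Its control libraries overlapped with those of Fas, the next gene in the order, and lay under those of Tnfrsf1b.

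**Figure D1:**
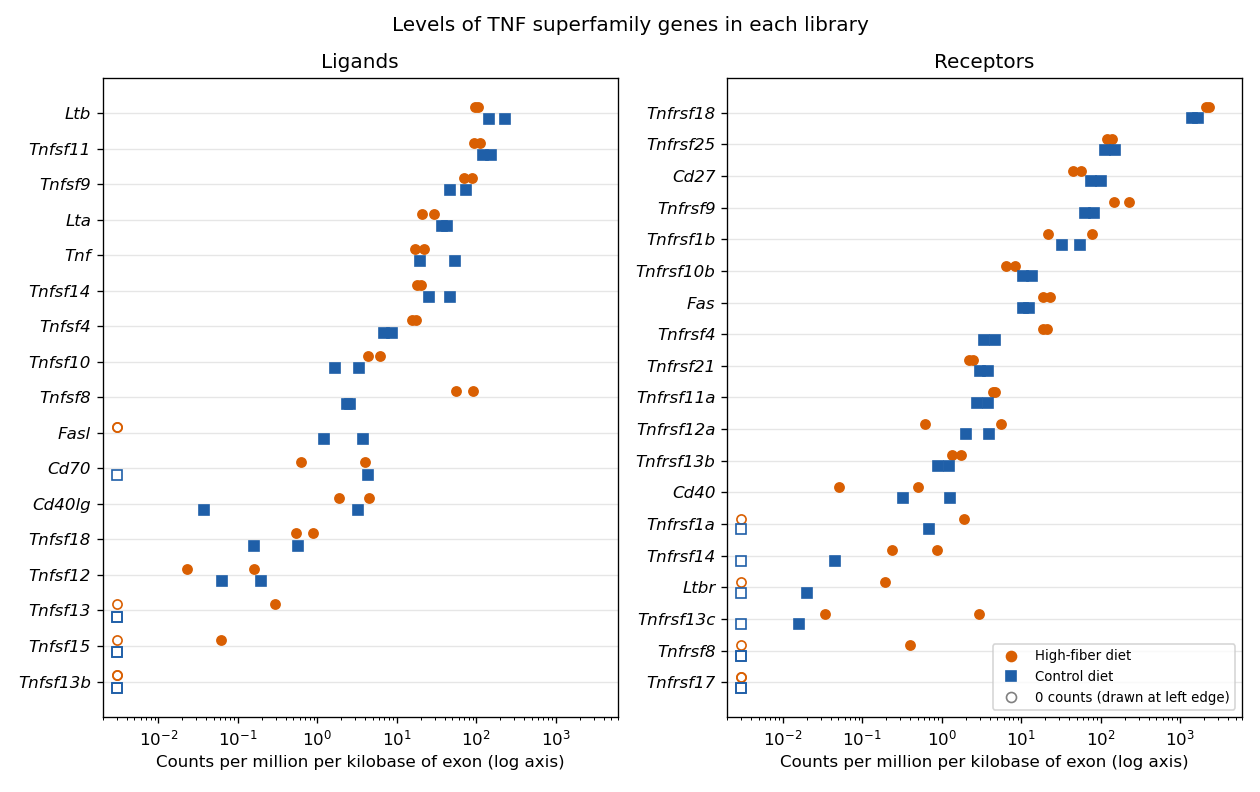
Level of each ligand gene (left) and receptor gene (right) in CPM per kilobase of exon, on a log axis, for each of the 2 high-fiber libraries (circles) and 2 control libraries (squares), ordered by the control mean; open symbols at the left edge stand for 0 counts. Tnfrsf18 stood above all other members in every library, and Tnfsf8 had its high-fiber libraries at 92.3 and 55.0 against control libraries at 2.58 and 2.39.

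Members at the low end were carried by few counts. Tnfsf13b, which encodes the B cell survival factor BAFF, and Tnfrsf17, the gene of its receptor BCMA, had 0 counts in all 4 libraries, and a count of 0 allows up to 3 counts over a diet group. Tnfsf13 (14 and 0 counts), Tnfsf15 (6 and 0 counts) and Tnfrsf8 (40 and 0 counts) were found in high-fiber library 1 and had 0 counts in both control libraries. Tnfsf12, Ltbr and Tnfrsf14 held at most 36 counts in any library. Tnfrsf13c, which encodes the BAFF receptor of B cells, had 2 and 123 counts in the high-fiber libraries and 1 and 0 counts in the control libraries. The 123 counts lay in the library with the highest B and plasma cell markers, where Pax5 was at 0. Of that marker list 9 of 10 genes had any count. These 9 members of the superfamily did not enter the edgeR test. Such floors take each count as an independent molecule. PCR copies of 1 molecule are counted more than once, so the floors can be too low. Within the high-fiber diet, for example, Tnfrsf1a had 143 and 0 counts.

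The diet comparison asked which of these genes differ between ILC2s of the high-fiber and the control mice. Of the 27 members tested, 13 ligands and 14 receptors, Tnfsf8 alone was called higher and 0 were called lower by edgeR's quasi-likelihood test at a Benjamini-Hochberg adjusted p under 0.05. Over all 11841 genes tested the shares were 0.0338% called higher and 0.0% called lower. At an unadjusted p under 0.05, 5 members were higher, 18.5% of those tested, where the share over all genes was 4.7%. By the same cut 3 members were lower, 11.1% of those tested, where the share over all genes was 4.1%. DESeq2 called 3 of 30 members higher and 1 lower, against 1.23% and 0.613% of all genes with an adjusted p. In 9 members both high-fiber libraries lay above both control libraries, 33.3% against 18.5% of all genes, and in 8 members below, 29.6% against 19.6%. These shares describe the list, which was chosen with earlier results of these data known. Among the tested members 1, Fasl, passed the filter on low counts through the control libraries only.

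Across the tested members 15 log2 fold changes were positive and 12 negative, with a median of 0.27, beside a median of -0.016 over all genes. The ligands had 6 positive and 7 negative values with a median of -0.33. The receptors had 9 positive and 5 negative values with a median of 0.36. No test compared ligands with receptors.

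**Figure D2:**
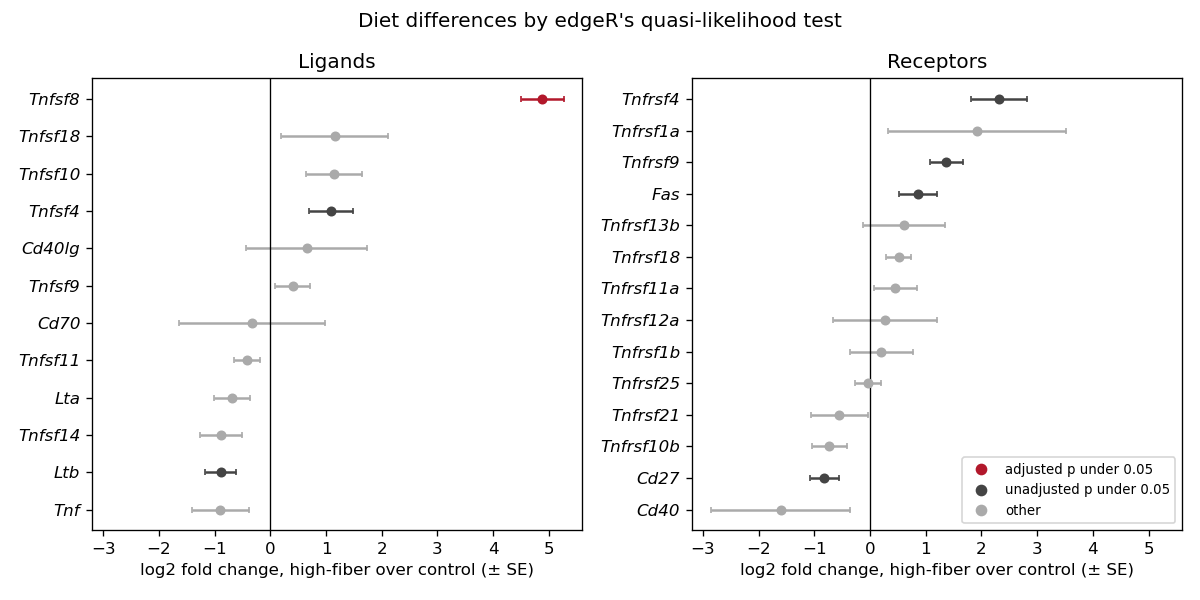
Log2 fold change, high-fiber over control, with its standard error for each tested ligand gene (left) and receptor gene (right) by edgeR's quasi-likelihood test, n = 2 mice per diet; Fasl, at 0 counts on the high-fiber diet, is left out. Tnfsf8 at 4.88 was the 1 gene past an adjusted p of 0.05, and dark points mark genes at an unadjusted p under 0.05.

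The CD30 ligand gene Tnfsf8 (NCBI gene 21949, chromosome 4 from 63831202 to 63861508 in GRCm38) had 352 and 209 CPM in the high-fiber libraries, against 9.83 and 9.10 CPM in the control libraries. Both high-fiber libraries lay above both control libraries, with 10148 and 4263 counts against 297 and 191 counts. The means were 280 ± 101 CPM in the high-fiber group and 9.47 ± 0.52 CPM on the control diet (SD, n = 2 each). The log2 fold change was 4.88 ± 0.39 (SE), with a Benjamini-Hochberg adjusted p = 0.0306 in edgeR's quasi-likelihood test. In the order of ligand levels Tnfsf8 ranked 4 on the high-fiber diet and 9 on the control diet. Without high-fiber library 2 the log2 fold change was 5.20. The edgeR call ended when any 1 of the 4 libraries was left out, with adjusted p from 0.0985 without high-fiber library 1 to 0.474 without control library 2. DESeq2 gave an adjusted p = 5.57e-42 and kept its call without each library.

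CD30 itself, the receptor of this ligand, is encoded by Tnfrsf8. It had 40 and 0 counts in the high-fiber libraries and 0 counts in both control libraries. The 40 counts are 13.9-fold above a floor of 3 counts over the control group, but 1 library held them all. High-fiber library 2 held 4263 counts of the ligand gene and 0 counts of the receptor gene.

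Receptors of the costimulatory kind, whose products recruit TRAF adaptors, included both receptor genes that rose with DESeq2. Tnfrsf9 (NCBI gene 21942, chromosome 4 from 150920155 to 150946104) had 626 and 402 CPM in the high-fiber libraries, against 227 and 171 CPM in the control libraries. The log2 fold change was 1.37 ± 0.29 (SE). The adjusted p was 0.447 by edgeR's quasi-likelihood test and 0.00139 by DESeq2, and the DESeq2 call was lost without control library 2 (adjusted p = 0.216). Its ligand gene Tnfsf9 had 115 and 89.3 CPM in the high-fiber libraries and 60.3 and 95.9 CPM in the control libraries. Those libraries overlapped, and the log2 fold change was 0.40 ± 0.31 (SE).

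The OX40 gene Tnfrsf4 (NCBI gene 22163, chromosome 4 from 156013595 to 156016613) had 25.8 and 28.8 CPM in the high-fiber libraries, against 4.67 and 6.48 CPM in the control libraries. The groups did not overlap, and the log2 fold change was 2.32 ± 0.50 (SE). The adjusted p was 0.447 by edgeR's quasi-likelihood test and 0.0026 by DESeq2. With DESeq2 the call was lost without high-fiber library 2 (adjusted p = 0.213), without control library 1 (0.275) or without control library 2 (0.0896). Its ligand gene Tnfsf4 had 28.3 and 32.5 CPM in the high-fiber libraries and 12.7 and 16.2 CPM in the control libraries. Here too both high-fiber libraries were the higher ones, with a log2 fold change of 1.09 ± 0.40 (SE), and neither edgeR (adjusted p = 0.50) nor DESeq2 (adjusted p = 0.349) called it. Tnfsf4 and Tnfrsf4 were thus the 1 ligand and receptor pair in which both genes had an unadjusted p under 0.05 and a positive log2 fold change.

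The remaining costimulatory receptors did not pass either test. Cd27 had 131 and 104 CPM in the high-fiber libraries, against 238 and 178 CPM in the control libraries, so that both high-fiber libraries were the lower ones. Its log2 fold change was -0.82 ± 0.26 (SE), with an adjusted p = 0.456 by edgeR's quasi-likelihood test. Its ligand gene Cd70 held 15 and 68 counts in the high-fiber libraries and 112 and 0 counts in the control libraries. The Cd70 log2 fold change of -0.33 ± 1.31 (SE) turned positive with DESeq2 and limma-voom. For Tnfrsf18 the levels were 3183 and 3529 CPM in the high-fiber libraries and 2537 and 2172 CPM in the control libraries, without overlap. Its log2 fold change was 0.51 ± 0.22 (SE), with an adjusted p = 0.588 by edgeR's quasi-likelihood test. Tnfsf18, the GITR ligand gene, held 53 and 23 counts in the high-fiber libraries and 10 and 25 counts in the control libraries. Tnfrsf25 overlapped between the diets, with 318 and 275 CPM in the high-fiber libraries, 347 and 260 CPM in the control libraries and a log2 fold change of -0.03 ± 0.24 (SE). That sign turned without high-fiber library 2 (0.06) and without control library 1 (0.19).

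**Figure D3:**
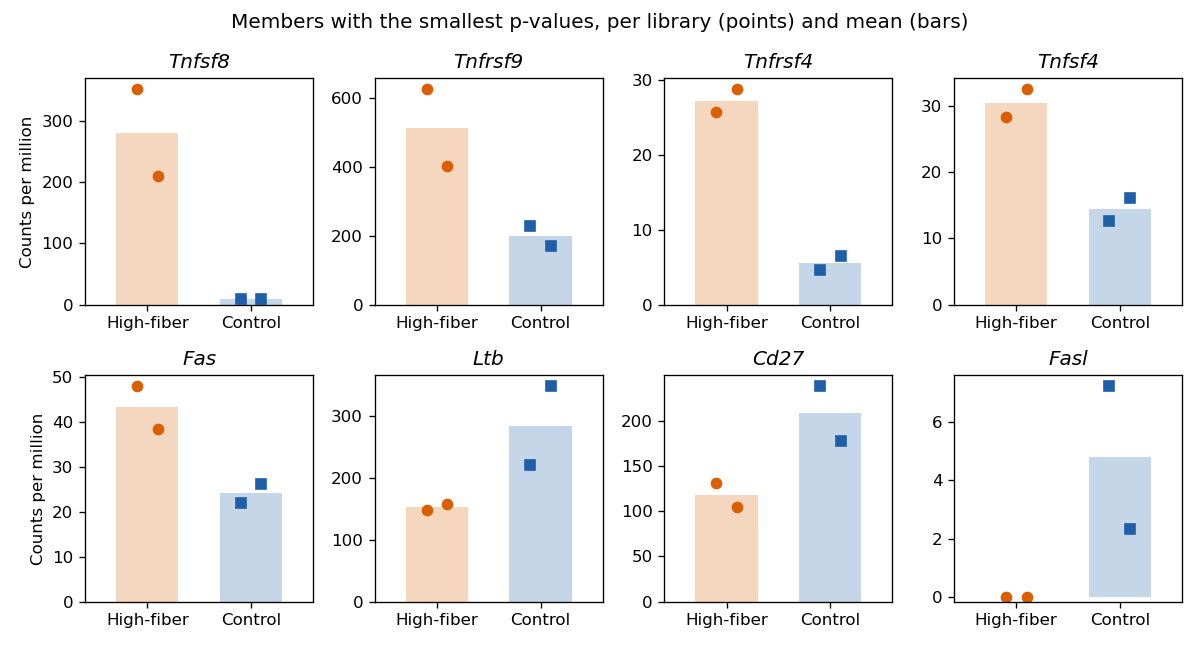
CPM of the 8 members with an unadjusted p under 0.05 in edgeR's quasi-likelihood test, with a point for each library and a bar for the mean of each diet (n = 2 mice), each panel on its own linear axis from 0. The high-fiber points lie above the control points for Tnfsf8, Tnfrsf9, Tnfrsf4, Tnfsf4 and Fas and below them for Ltb, Cd27 and Fasl.

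Death ligands and death receptors were mixed in direction. Fasl had 0 counts in both high-fiber libraries, against 218 and 49 counts in the control libraries. Against a floor of 3 counts over both high-fiber libraries, Fasl was 85.6-fold lower on the high-fiber diet. That fold takes each count as an independent molecule, and with PCR copies counted it is not a lower bound. The fold was 38.3 without control library 1, which held 218 of the 267 control counts, and 118 without control library 2. The adjusted p was 0.447 by edgeR's quasi-likelihood test and 0.00215 by DESeq2. Without control library 1, DESeq2 gave Fasl no adjusted p. Fas, the receptor of this ligand, had 47.9 and 38.5 CPM in the high-fiber libraries, against 21.9 and 26.2 CPM in the control libraries. The Fas log2 fold change was 0.86 ± 0.34 (SE), with adjusted p = 0.536 by edgeR's quasi-likelihood test and 0.449 by DESeq2. Tnfsf10 had 32.7 and 22.9 CPM in the high-fiber libraries and 8.81 and 17.6 CPM in the control libraries, with both high-fiber libraries the higher ones. Tnfrsf10b had 45.0 and 35.1 CPM in the high-fiber libraries and 75.2 and 57.8 CPM in the control libraries, with both high-fiber libraries the lower ones. Neither gene of this TRAIL pair had an unadjusted p under 0.05.

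Fasl is also a gene of cytotoxic lymphocytes. Of the NK cell marker list 5 of 6 genes had any count and Eomes had 0. The list summed to 23.5 and 9.67 CPM in the high-fiber libraries and 27.6 and 25.7 CPM in the control libraries. Prf1 had 22.0 and 0 CPM in the high-fiber libraries and 16.6 and 21.7 CPM in the control libraries. Gzmb had 0.03 and 9.62 CPM in the high-fiber libraries and 0 and 2.14 CPM in the control libraries. Ncr1 held 40 and 0 counts in the high-fiber libraries and 330 and 0 counts in the control libraries. Each of these genes overlapped between the diets. Of the T cell list 10 of 13 genes had any count, and Cd8a, Cd8b1 and Cd5 were at 0 in all 4 libraries. The sums were 1384 and 1312 CPM in the high-fiber group and 1239 and 1411 CPM on the control diet. Trbc1, Cd28, Trbc2 and Cd3g gave most of each sum, with Trbc1 at 460 and 525 CPM in the high-fiber libraries and 580 and 638 CPM in the control libraries. Trac had only 4.16 and 10.6 CPM in the high-fiber libraries and 14.9 and 9.67 CPM in the control libraries. Cd3d had 1.42 and 4.51 CPM in the high-fiber libraries and 4.27 and 3.48 CPM in the control libraries. Within that list the genes differed in direction. Cd3g had 244 and 289 CPM in the high-fiber libraries and 143 and 171 CPM in the control libraries (unadjusted p = 0.0132 by edgeR's quasi-likelihood test, not called by either tool). Cd3e held 35 and 108 counts in the high-fiber libraries and 175 and 277 counts in the control libraries. Themis held 52 and 43 counts in the high-fiber libraries and 363 and 334 counts in the control libraries, and DESeq2 called it lower (adjusted p = 0.0099). The part of such cells in the values of Fasl and Cd27 was not tested.

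Lymphotoxin and TNF, whose genes lie side by side on chromosome 17, had negative log2 fold changes together. Ltb had 148 and 157 CPM in the high-fiber libraries, against 220 and 348 CPM in the control libraries. Both high-fiber libraries were the lower ones, and the log2 fold change was -0.89 ± 0.28 (SE), with an adjusted p = 0.456 by edgeR's quasi-likelihood test. Lta had 28.6 and 41.1 CPM in the high-fiber libraries and 59.0 and 51.9 CPM in the control libraries, with a log2 fold change of -0.69 ± 0.32 (SE). Tnf had 28.1 and 36.3 CPM in the high-fiber libraries and 32.4 and 89.0 CPM in the control libraries, and of these 3 genes only Tnf had groups that overlap. Its log2 fold change of -0.90 ± 0.51 (SE) was -0.02 without control library 2. No member of this trio passed edgeR or DESeq2. The gap between Ltb and Tnf is 3061 bases and that between Tnf and Lta 1157 bases.

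Receptors for these ligands were uneven in level. Tnfrsf1b had 298 and 82.6 CPM in the high-fiber libraries and 210 and 123 CPM in the control libraries, with high-fiber libraries that enclosed the control values. Tnfrsf1a, the TNF receptor with a death domain, held 143 and 0 counts in the high-fiber libraries and 0 and 38 counts in the control libraries. Ltbr, the receptor for lymphotoxin made of both subunits, held 13 and 0 counts in the high-fiber libraries and 0 and 1 counts in the control libraries.

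Tnfsf11 and Tnfsf14 also had both high-fiber libraries below the control libraries. Tnfsf11 had 249 and 211 CPM in the high-fiber libraries and 346 and 270 CPM in the control libraries (log2 fold change -0.42 ± 0.23, SE). Tnfsf14 had 37.0 and 33.6 CPM in the high-fiber libraries and 46.8 and 85.9 CPM in the control libraries (log2 fold change -0.89 ± 0.38, SE). Both missed an unadjusted p of 0.05 in edgeR. DESeq2 gave Tnfsf14 an unadjusted p = 0.0381 and an adjusted p = 0.476. Tnfsf11, Ltb and Lta are also known from group 3 innate lymphoid cells. A list of ILC3 markers, of which 2 of 5 had any count while Il22, Il23r and Ccr6 were at 0, summed to 19.8 and 5.69 CPM in the high-fiber group and 37.1 and 28.9 CPM on the control diet. Its part in these values was not tested.

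With each of the 4 libraries left out in turn, log2 fold changes ran from 1.04 to 1.65 for Tnfrsf9, from 2.07 to 2.54 for Tnfrsf4, from 0.91 to 1.26 for Tnfsf4, from 0.72 to 1.00 for Fas, from -1.19 to -0.53 for Ltb and from -1.02 to -0.59 for Cd27. The Ltb value nearest 0 came without control library 2, where Tnfsf14 stood at -0.40. Without high-fiber library 2 the values were 1.65 for Tnfrsf9, 2.24 for Tnfrsf4, 0.99 for Tnfsf4, 1.00 for Fas, -0.94 for Ltb and -0.67 for Cd27. None of these 6 genes changed sign.

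Several members of smaller level had libraries that overlapped between the diets. Cd40lg, the T cell helper ligand, held 68 and 113 counts on the high-fiber diet and 122 and 1 counts on the control diet. Its receptor gene Cd40 held 5 and 35 counts on the high-fiber diet and 34 and 92 counts on the control diet. Tnfrsf12a, the receptor for TWEAK, held 315 and 24 counts on the high-fiber diet and 118 and 161 counts on the control diet. Tnfrsf11a, which encodes RANK, Tnfrsf13b, which encodes TACI, and Tnfrsf21, which encodes DR6, had log2 fold changes of 0.45, 0.61 and -0.55, each without overlap between diets and each with an unadjusted p over 0.05.

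Ligands were set beside their receptors in 23 known pairs. Ligand and receptor were both present at 1 CPM or more in all 4 libraries in 6 pairs. These were Tnf and Lta with Tnfrsf1b, Tnfsf4 with Tnfrsf4, Tnfsf9 with Tnfrsf9, Tnfsf10 with Tnfrsf10b, and Tnfsf11 with Tnfrsf11a. In 6 pairs the ligand alone was present, Ltb with Ltbr and Tnfsf8 with Tnfrsf8 among them. The receptor alone was present in 7 pairs, among them Tnfsf15 with Tnfrsf25 and Tnfsf18 with Tnfrsf18, the receptors of highest level on the control diet. Neither gene was present in 4 pairs, which involve Cd40lg with Cd40 and the BAFF and APRIL ligands with Tnfrsf17 and Tnfrsf13c. Tnfrsf21 has no ligand among the members. These RNA levels do not show whether a ligand and its receptor lay on the same cell.

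**Figure D4:**
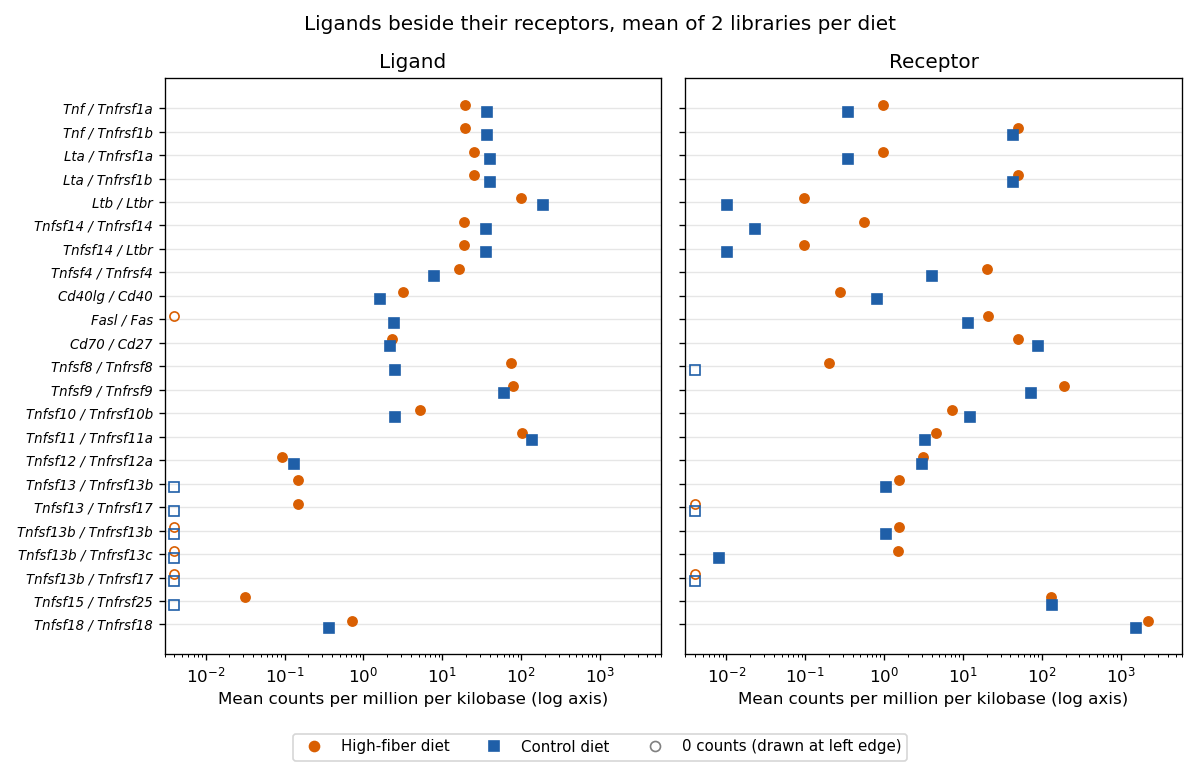
Mean level of each ligand (left) and of the receptor it pairs with (right) in CPM per kilobase of exon, on log axes, for the high-fiber diet (circles) and the control diet (squares), n = 2 libraries each; open symbols at the left edge stand for 0 counts. Tnfsf8 lies far right of the control value on the high-fiber diet, while its receptor Tnfrsf8 averaged 0.20 CPM per kb there and 0 in the control libraries. The high-fiber libraries held 40 and 0 counts of Tnfrsf8.

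Members cluster in the genome. Chromosome 4 holds 9 of them and chromosome 17 holds 8. Tnfrsf4 and Tnfrsf18 lie 9708 bases apart on chromosome 4 and both had positive log2 fold changes, 2.32 and 0.51. Tnfsf15 is the neighbour of Tnfsf8 at a gap of 86142 bases and held 6 and 0 counts in the high-fiber libraries and 0 counts in both control libraries. Tnfsf4 and Fasl lie on chromosome 1 with Tnfsf18 between them, Tnfsf18 at 76450 bases from Tnfsf4 and 275400 bases from Fasl, and their differences between the diets were opposite in sign.

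Genes that act downstream of the receptors or process the ligands were read together with 10 other superfamily genes. The 5 lists held 64 genes, of which 58 were tested. With edgeR 0 of the 58 were called in either direction at an adjusted p under 0.05. At an unadjusted p under 0.05, 3 were higher, 5.17% against 4.7% of all genes, and 0 lower, against 4.1% of all genes. DESeq2 called 1, where it called 1.23% of all genes higher and 0.613% lower. These shares lie near or under the background. In all, 27 log2 fold changes were positive and 31 negative, with a median of -0.06 beside -0.016 over all genes. The gene called by DESeq2 was Otulin, a deubiquitinase that removes linear ubiquitin chains. It had 112 and 134 CPM in the high-fiber libraries, against 57.0 and 22.9 CPM in the control libraries (log2 fold change 1.59 ± 0.42, SE, DESeq2 adjusted p = 0.0299).

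In the list of adaptors and ubiquitin enzymes, the median log2 fold change of 21 genes was -0.18, with 9 values above and 12 below 0. Tab2, an adaptor of the kinase TAK1, averaged 42.8 ± 3.08 CPM in the high-fiber group and 65.7 ± 2.14 CPM on the control diet (SD, n = 2 each). Tnip2, an inhibitor of NF-kB activation, averaged 13.2 ± 5.68 CPM in the high-fiber group and 25.2 ± 3.71 CPM on the control diet. Among kinases and NF-kB subunits, 5 of 14 values were positive, with a median of -0.14. Rel, which encodes c-Rel, averaged 632 ± 35.5 CPM in the high-fiber group and 409 ± 119 CPM on the control diet, at an unadjusted p = 0.0472 by edgeR's quasi-likelihood test.

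Of 10 genes of the death branch, such as Fadd and Casp8, 6 had positive values, with a median of 0.24 and 0 at an unadjusted p under 0.05. Of the 8 sheddases and ligand-processing proteases tested, 5 had positive values, with a median of 0.36. Furin, a proprotein convertase, averaged 177 ± 40.3 CPM in the high-fiber group and 108 ± 26.2 CPM on the control diet, at an unadjusted p = 0.0419 by edgeR's quasi-likelihood test. Among the other superfamily genes 5 of 10 were tested, 2 with positive values, and Relt, a receptor of lymphoid tissue, averaged 6.87 ± 1.53 CPM in the high-fiber group and 12.5 ± 1.08 CPM on the control diet.

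**Figure D5:**
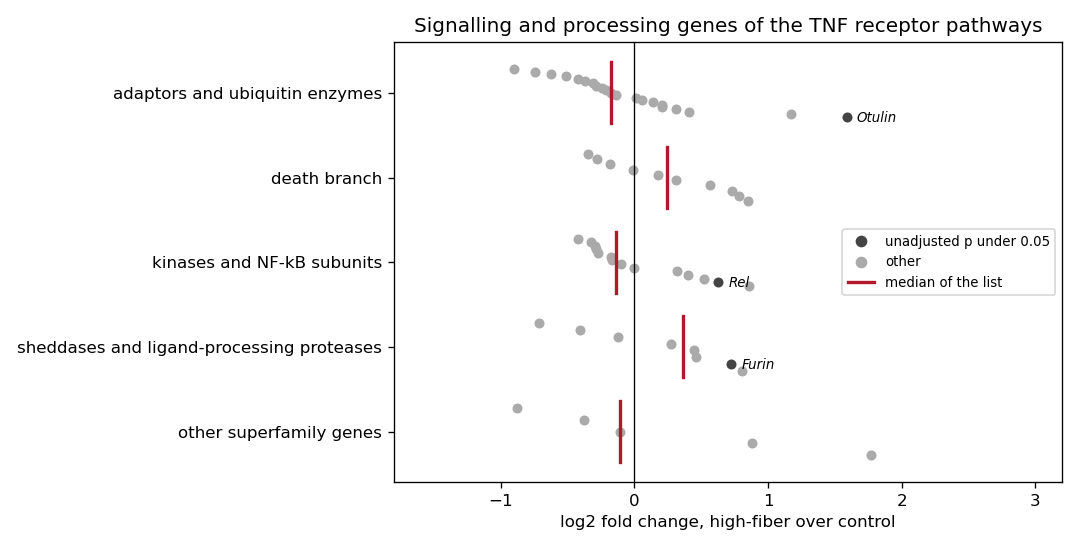
Log2 fold change, high-fiber over control, of each tested gene in 5 lists of downstream, processing and other superfamily genes. A red line marks the median of each list, and the 3 genes at an unadjusted p under 0.05 by edgeR's quasi-likelihood test are named. List medians lie between -0.18 and 0.36, and the values of each list fall on both sides of 0.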

How the data were processed

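Per the labels' protocols, a SMARTer kit for very little RNA was used on the sorted cells. The submitters' processing notes list CASAVA 1.8.2, STAR 2.3.0 and build mm10. Neither the counting program nor its strand setting is given in the sources used here. The authors deposited raw read counts per gene, as whole numbers. They cover 27179 NCBI gene identifiers, of which 25275 matched a RefSeq symbol, and 0 value columns lacked a sample. Totals were 20253987 to 30406730 counts per library.

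Counts were tested in R 4.3.3 with edgeR 4.0.16 (filterByExpr, TMM scaling, glmQLFit with legacy=FALSE, glmQLFTest, Benjamini-Hochberg adjustment at 0.05) over 11841 genes, with diet as the only term. The fit left 2 residual degrees of freedom, and the common BCV (biological coefficient of variation) was 0.607. Standard errors come from the log2 fold change and its F statistic, and CPM uses TMM-scaled totals. An exact permutation test of 2 against 2 libraries cannot go below p = 0.333 (two-sided) and was not used. Levels per kilobase divide CPM by the union of GENCODE M21 exons, since the RefSeq table that had been planned for gives genomic spans only. A fold against 0 counts was set against 3 counts over the group.

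Each of these settings was changed in turn. Scaling was by RLE, by upper quartile or absent. The filter was absent or set to 5 CPM in 2 libraries or more. The tool was DESeq2 1.42.0, limma-voom (limma 3.58.1), edgeR's older fit or its robust fit. A replicate block was added, single libraries were left out, 95 ribosomal, mitochondrial and hemoglobin genes were left out, and the adjusted p was raised to 0.1. Fits of DESeq2 with a block or without a library were added after seeing the data.

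Values in every library are given for members at an unadjusted p under 0.05 in edgeR or an adjusted p under 0.05 in either tool, for the 6 ligands and 6 receptors of highest control level, and for their pairing partners. Signalling genes are named where DESeq2 or edgeR called them and otherwise as the 3 of smallest p in each direction. Further genes with values were chosen after these were seen. Members, lists and rules were chosen with earlier results of these data known. Sequences are from RefSeq.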

Additional observations from a re-analysis of the deposited data

How the results depend on the processing

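With edgeR 1 member was called higher and 0 lower. The call of Tnfsf8 stood with RLE, upper-quartile and no scaling, a 5 CPM filter, robust fitting, an adjusted p of 0.1, and without ribosomal, mitochondrial and hemoglobin genes. The count higher was 0 with no filter on low counts, limma-voom and the older quasi-likelihood fit, and 0 to 0 when 1 library was left out. DESeq2 gave 3 higher and 1 lower. With DESeq2 and 1 library left out, the counts ran from 1 to 5 higher and from 0 to 2 lower. The causes were not tested. Adjusted p for Tnfsf8 was 0.0723 with no filter, 0.233 with limma-voom and 0.0813 with the older fit, and its log2 fold change ran from 4.48 to 5.20 over the fits without 1 library. No tested member changed sign under the 3 other scalings, and without scaling the median of all genes moved by -0.041.

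With a replicate block 0 members were called higher (Tnfsf8 adjusted p = 0.337), while DESeq2 with the block kept counts of 3 higher and 1 lower. The numbers mark no pairing in the labels, and the correlation of same-numbered deviations was 0.041. The log2 fold change of Tnfrsf1b was -0.0011 with the block.

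Signs of uncalled members turned as follows. Cd70 was at 0.080 with DESeq2, 1.44 with limma-voom and 0.049 with the older fit, and ran from -2.05 to 8.34 with 1 library left out. Tnfrsf1b was at -0.00058 and Tnfrsf12a at -0.25 with limma-voom. With 1 library left out the ranges were -0.99 to 0.83 for Tnfrsf1b, -2.20 to 0.98 for Tnfrsf12a, -0.11 to 6.15 for Cd40lg, -0.23 to 0.19 for Tnfrsf25 and -7.16 to 9.22 for Tnfrsf1a. With 1 library left out, the lone library of a diet is assumed to vary like the other diet. With 2 mice per diet and this spread, a member missing the threshold is not shown to be equal between diets.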
